A study of Mus musculus with 12 samples.

Results

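The cytosolic ribosomal protein genes encode the protein components of the ribosomes that translate nuclear messages in the cytoplasm. They were taken as all genes whose symbol begins with Rpl or Rps and a digit, leaving out the S6 kinases (Rps6k) and symbols that contain bp, with the acidic stalk genes Rplp0, Rplp1 and Rplp2 and the laminin receptor gene Rpsa added. This gave 100 of 21960 listed genes, 65 named for the large subunit and 35 for the small subunit. Each ribosome carries a large subunit, which forms peptide bonds, and a small subunit, which reads the message. Their proteins are needed in near-equal amounts, and their messages start with a pyrimidine tract through which mTOR signaling sets their translation as a group. Growing epithelial tumors make many ribosomes, and drugs that damage DNA or block rRNA synthesis, doxorubicin among them, are known to disturb ribosome production.

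Expression was measured by sequencing of total RNA from 12 whole mammary tumors of female MMTV-PyMT mice on a C57BL/6 background, in which the mouse mammary tumor virus promoter drives the polyoma middle T oncogene, with 1 snap-frozen tumor per library. Each of 4 groups held 3 tumors. IgG1 mice received a control antibody and anti-PD-1 mice an antibody that blocks the T cell checkpoint receptor PD-1. In these 2 groups dosing began at a tumor diameter of 0.6 cm, with 20 mg/kg first and 10 mg/kg later. DOX/IgG1 and DOX/anti-PD-1 mice began at 1 cm and received doxorubicin, an anthracycline that traps topoisomerase on DNA, at 5 mg/kg each week, with the same antibodies at 10 mg/kg. All 4 groups were labelled as treated for 5 weeks. Doxorubicin, the starting size and the antibody schedule therefore cannot be told apart in any comparison of a doxorubicin group with an antibody-only group.

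Values were TPM, a transcript level that allows for transcript length, and the depth behind them is unknown because no counts were given. The listed genes summed to 609418 TPM in IgG1 replicate 1, the lowest, and to 725506 TPM in DOX/anti-PD-1 replicate 2, the highest. The epithelial label of the tissue held, since all 7 epithelial markers were present. Their summed level was 3771, 2619 and 3241 TPM in the IgG1 tumors, 2902, 2238 and 2479 TPM in the anti-PD-1 tumors, 2176, 3339 and 3865 TPM in the DOX/IgG1 tumors and 3222, 2883 and 2316 TPM in the DOX/anti-PD-1 tumors, with Epcam the most abundant. In whole tumors, fewer cells of a type and less RNA per cell cannot be told apart. The p-values below set a difference against the spread between the tumors compared, either those of 2 groups or all 12.

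Of the 100 genes, 77 make up the standard list of cytosolic ribosomal proteins, 46 of the large subunit and 31 of the small subunit. Among the other 23, 14 carry the pseudogene suffix and the rest are paralogs or related loci. Testing required 1 TPM or more in 3 or more tumors of a comparison, and 93 of the 100 genes were tested over the 12 tumors. Rpl10l, a testis paralog of Rpl10, was listed at 0 in all 12 tumors, as were the copies Rpl21-ps4, Rpl9-ps1 and Rpl36-ps4. Another 16 genes were at 0 in some tumors, and 72 of the 77 standard genes reached 10 TPM in every tumor. The mouse annotation holds 289 Rpl and Rps pseudogene names, 275 of which were not listed here, so reads from near-identical copies may have been divided among loci.

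Rpl13a, a large-subunit protein also known for silencing inflammatory messages outside the ribosome, was the most abundant of all 21960 listed genes, with a mean of 5653 TPM over the 12 tumors. IgG1 tumors held 6283, 6224 and 3916 TPM and anti-PD-1 tumors 3767, 6334 and 8532 TPM. In the DOX/IgG1 tumors it stood at 5817, 5202 and 5500.4 TPM and in the DOX/anti-PD-1 tumors at 6082, 6306 and 3877 TPM. The 4 groups overlapped, with the highest and the lowest tumor both in the anti-PD-1 group. The next genes were not ribosomal, namely the casein Csn3 (5318 TPM), the iron carrier Trf (4337 TPM) and the elongation factor Eef1a1 (4051 TPM).

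Rpl26, a large-subunit protein also known to promote p53 translation after DNA damage, ranked 12 of all listed genes with a mean of 2306 TPM. Its tumors read 2911, 2574 and 1559 TPM under IgG1, 1735, 2325 and 2823 TPM under anti-PD-1, 3124, 2472 and 1870.5 TPM under DOX/IgG1 and 2438, 2212 and 1629.7 TPM under DOX/anti-PD-1, again with full overlap. Rplp1, a phosphoprotein of the stalk that recruits elongation factors, ranked 17 with a mean of 1802 TPM, and its lowest tumor was anti-PD-1 replicate 1. Of the small subunit, Rpsa, also known as a precursor of the laminin receptor, ranked 20 at a mean of 1689.6 TPM. In the anti-PD-1 tumors Rpsa read 823, 1728 and 1815 TPM, so replicate 1 lay below every other tumor of the 12.

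Among the 100 most abundant genes of a tumor, 21, 16 and 11 were ribosomal protein genes in the IgG1 tumors and 13, 18 and 22 in the anti-PD-1 tumors. The DOX/IgG1 tumors had 18, 16 and 16 and the DOX/anti-PD-1 tumors 20, 19 and 16. IgG1 replicate 3 and anti-PD-1 replicate 1 thus held the fewest. At the low end of the standard list, Rpl37, a small zinc-binding protein of the large subunit, averaged 22.8 TPM and Rps12, a protein of the small-subunit head, 30.7 TPM. Levels within the standard list therefore differed by more than 100-fold between genes whose products are needed in near-equal amounts.

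Sequence around the transcription start is shown for the members that carry the results below, since ribosomal protein messages are known for a terminal oligopyrimidine tract at their first base. RefSeq promoters (GRCm38.p6) were found for 65 of the 100 genes, with 77 starts in all. Rps29, Rplp1 and Rps27a had no entry. Each line runs 5′ to 3′ from 40 bases before to 20 bases after the start. Capitals mark the first tract found, as far as it lies from 10 bases before to 15 after the start.
Rpl13a: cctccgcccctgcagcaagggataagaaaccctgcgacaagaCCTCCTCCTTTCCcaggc
Rplp2: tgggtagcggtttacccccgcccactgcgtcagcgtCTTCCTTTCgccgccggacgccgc
Rps6: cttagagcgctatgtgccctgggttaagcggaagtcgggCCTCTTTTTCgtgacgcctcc
Rps9: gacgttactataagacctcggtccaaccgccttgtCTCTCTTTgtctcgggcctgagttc
Rpl31: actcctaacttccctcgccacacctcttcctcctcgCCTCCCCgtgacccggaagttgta
Rps16: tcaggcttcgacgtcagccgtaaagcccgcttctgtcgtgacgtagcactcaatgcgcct
Rps4x: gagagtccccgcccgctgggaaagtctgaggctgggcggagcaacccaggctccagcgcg
Rpl5: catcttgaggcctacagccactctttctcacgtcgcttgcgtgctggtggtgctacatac
They lie at chr7:45128726-45128785 (minus strand), chr7:141447611-141447670 (plus), chr4:86857348-86857407 (minus), chr7:3704001-3704060 (plus), chr1:39367811-39367870 (plus), chr7:28350649-28350708 (plus), chrX:102189372-102189431 (minus) and chr5:107900488-107900547 (plus). The tract sought was a C followed by at least 4 bases that are each C or T, on the transcribed strand only. Rplp2 and Rps6 carried it with a C as the first transcribed base and at least 4 pyrimidines after that C. In Rpl31 the tract also crossed a C at the first base, with fewer than 4 pyrimidines after it. The tract of Rps9 crossed the start with a T as the first base, and that of Rpl13a began within a few bases after the start. No tract lay in the window from 10 bases before to 15 after the start of Rps16, Rps4x or Rpl5. Counted from a C at the first transcribed base, a tract was found for 13 of 67 starts of the standard list (19.4%) and for 823 of 32851 starts of all genes (2.51%). Within the wider window the shares were 53.7% (36 of 67) and 30.7% (10093 of 32851). A match describes these letters and shows nothing of how a message is translated.

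The members together took up 7.40, 5.65 and 4.24% of listed TPM in the IgG1 tumors and 4.64, 6.25 and 6.76% in the anti-PD-1 tumors. In the DOX/IgG1 tumors they took up 6.08, 5.06 and 4.95%, and in the DOX/anti-PD-1 tumors 6.38, 6.09 and 5.08%. Group means were 5.76 ± 1.58%, 5.88 ± 1.11%, 5.36 ± 0.623% and 5.85 ± 0.683% (SD, n = 3 each). All 4 groups overlapped, and the whole range, from IgG1 replicate 3 to IgG1 replicate 1, lay within the IgG1 group. The difference between any 2 group means was smaller than the SD of the IgG1 tumors. IgG1 replicate 1 also had the lowest listed sum, against which its share was taken.

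The large subunit made up 4.82, 3.70 and 2.64% of listed TPM in the IgG1 tumors and 2.95, 3.98 and 4.41% in the anti-PD-1 tumors. It made up 3.93, 3.21 and 3.13% in the DOX/IgG1 tumors and 4.03, 3.81 and 3.04% in the DOX/anti-PD-1 tumors. The corresponding group means were 3.72 ± 1.09%, 3.78 ± 0.754%, 3.42 ± 0.443% and 3.63 ± 0.520% (SD, n = 3). Tumors high in total share were high in the large subunit, and no group stood apart. The small subunit made up 2.58, 1.95 and 1.60% in the IgG1 tumors, 1.70, 2.26 and 2.35% in the anti-PD-1 tumors, 2.15, 1.85 and 1.82% in the DOX/IgG1 tumors and 2.35, 2.28 and 2.04% in the DOX/anti-PD-1 tumors. Its means were 2.04 ± 0.496%, 2.10 ± 0.356%, 1.94 ± 0.180% and 2.22 ± 0.163% (SD, n = 3). DOX/anti-PD-1 tumors had the highest mean and the DOX/IgG1 tumors the lowest, with overlap between them.

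**Figure D1:**
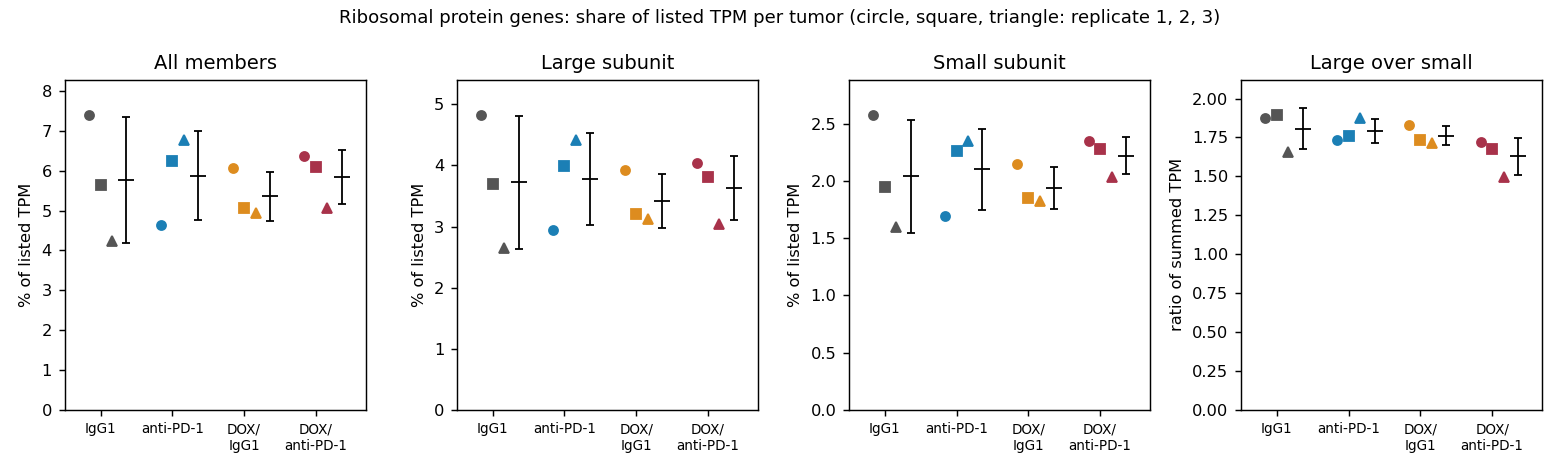
Share of listed TPM (%) of all 100 members, the large subunit and the small subunit, and the ratio of summed TPM of the large over the small subunit, for each of 12 tumors in 4 groups (symbols mark replicates 1 to 3, bars the mean and SD of 3 tumors). The shares of the groups overlapped, and DOX/anti-PD-1 replicate 3 had the lowest ratio at 1.49.

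Summed TPM of the large over the small subunit was 1.87, 1.89 and 1.66 in the IgG1 tumors and 1.74, 1.76 and 1.88 in the anti-PD-1 tumors. It was 1.83, 1.74 and 1.72 in the DOX/IgG1 tumors and 1.72, 1.67 and 1.49 in the DOX/anti-PD-1 tumors. DOX/anti-PD-1 tumors held the lowest mean, 1.63 ± 0.119, against 1.81 ± 0.131 under IgG1, 1.79 ± 0.0751 under anti-PD-1 and 1.76 ± 0.0621 under DOX/IgG1 (SD, n = 3). Their range overlapped that of the IgG1 and DOX/IgG1 tumors and lay below all 3 anti-PD-1 tumors. The gap to the anti-PD-1 tumors held for the standard list, without Rpl13a and without the 5 most abundant members, by a narrow margin each time. Being a ratio of sums in 1 tumor, it does not depend on scaling, and no test was made of it. Rpl13a alone carried 14.7% of member TPM. Without it the mean ratios were 1.40 for IgG1, 1.36 for anti-PD-1, 1.35 for DOX/IgG1 and 1.27 for DOX/anti-PD-1 tumors. When the 5 most abundant members were left out they were 1.49, 1.42, 1.35 and 1.35 in that order. The ratio thus depended on a few large-subunit genes at high level, although the large subunit led in summed TPM in every tumor in each case. These sums also held more large-subunit genes, 65 against 35 members and 46 against 31 in the standard list. Median log2(TPM + 1) over the standard list averaged 8.265, 8.28, 7.90 and 8.01 for the large subunit in the same group order. For the small subunit it averaged 8.26, 8.29, 8.07 and 8.38, so the lead in summed TPM was not a lead of the typical gene.

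Rpl13a by itself took up 1.03, 0.902 and 0.553% of listed TPM in the IgG1 tumors, 0.577, 0.968 and 1.26% in the anti-PD-1 tumors, 0.833, 0.740 and 0.801% in the DOX/IgG1 tumors and 0.920, 0.869 and 0.604% in the DOX/anti-PD-1 tumors. Genes outside the standard list added between 0.0667% and 0.154% per tumor. The 78 mitochondrial ribosomal protein genes, whose products serve the ribosome of the mitochondrion, took up 0.415, 0.370 and 0.315% in the IgG1 tumors, 0.341, 0.380 and 0.423% in the anti-PD-1 tumors, 0.349, 0.357 and 0.354% in the DOX/IgG1 tumors and 0.408, 0.378 and 0.346% in the DOX/anti-PD-1 tumors. IgG1 replicate 3 and anti-PD-1 replicate 1 were the lowest of their groups in both the mitochondrial and the cytosolic share. Other transcripts of up to 1000 bases took up 5.42, 3.70 and 3.73% in the IgG1 tumors and 4.24, 4.45 and 4.75% in the anti-PD-1 tumors. Their share was 4.42, 4.32 and 3.80% in the DOX/IgG1 tumors and 4.91, 4.18 and 3.38% in the DOX/anti-PD-1 tumors. IgG1 replicate 1 was highest there too, and the part of short transcripts in the ribosomal share was not tested.

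Across the 12 tumors the median SD of log2(TPM + 1) was 0.40 for the 93 genes tested and 0.39 for the standard list. It was 0.48 for the mitochondrial ribosomal protein genes, 0.50 for all 14735 genes tested and 0.36 for the 1360 genes with a mean of at least 100 TPM. Rpl15, which acts early in large-subunit assembly, had the smallest SD at 0.14, followed by Rpl4, which lines the peptide exit tunnel (0.20), and the paralog Rpl7l1 (0.21). Rpl15 read 81.2, 67.5 and 75.2 TPM in the IgG1 tumors, 70.7, 70.1 and 86.3 TPM in the anti-PD-1 tumors, 87.6, 62.1 and 70.0 TPM in the DOX/IgG1 tumors and 72.6, 75.8 and 73.5 TPM in the DOX/anti-PD-1 tumors, with overlap of all groups. Largest were Rpl10-ps3 (2.91), Rps12 (2.72) and Rpl23a-ps3 (2.64), each at 0 in some tumors. Over the 77 standard genes, the rank correlation of levels between 2 tumors had a median of 0.951 for the 12 pairs within a group and 0.950 for the 54 pairs between groups. These correlations run across genes, which are not independent replicates.

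Rps12 was the least even standard gene. It read 104, 12.6 and 0 TPM in the IgG1 tumors, 18.5, 50.6 and 13.4 TPM in the anti-PD-1 tumors, 55.3, 0 and 0 TPM in the DOX/IgG1 tumors and 74.2, 40.1 and 0 TPM in the DOX/anti-PD-1 tumors. Tumors at 0 and above 50 TPM occurred within the same group. Rpl24, a protein of a bridge between the subunits, was at 0 in DOX/anti-PD-1 replicate 1 and at 84.6, 13.7 and 61.5 TPM in the IgG1 tumors. Rpl31, which sits at the peptide exit, stood at 3.09 TPM in that same DOX/anti-PD-1 tumor while the other tumors of its group held 96.4 and 119.8 TPM. For Rpl31 that 1 tumor set the sign of its log2 fold change against anti-PD-1 tumors, which was -0.26 (SE 1.06) with it and 1.32 without DOX/anti-PD-1 replicate 1.

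Rps27a, which encodes a small-subunit protein fused to ubiquitin and served the study as its PCR control, did not separate the groups. Levels were 1251, 1135 and 808 TPM in the IgG1 tumors, 879, 1151 and 1429 TPM in the anti-PD-1 tumors, 1274, 860.0 and 917 TPM in the DOX/IgG1 tumors and 1302, 1087 and 1014 TPM in the DOX/anti-PD-1 tumors. All 4 groups overlapped. Its log2 fold change was -0.03 with doxorubicin over both antibodies and 0.14 with anti-PD-1 over both chemotherapy arms (SE 0.192 for both), with exact permutation p values of 0.825 and 0.374 (6 against 6, two-sided). Scaling by the median of ratios moved the first to -0.16 and kept its sign, whereas leaving out IgG1 replicate 1 (0.03), anti-PD-1 replicate 3 (0.04) or DOX/IgG1 replicate 2 (0.02) turned it positive.

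Rps3, a small-subunit protein at the message entry that also acts in DNA repair, read 258, 228 and 189.8 TPM in the IgG1 tumors, 257, 161 and 194 TPM in the anti-PD-1 tumors, 223, 149 and 142 TPM in the DOX/IgG1 tumors and 198, 182 and 195 TPM in the DOX/anti-PD-1 tumors. Rps19, the small-subunit gene most often mutated in Diamond-Blackfan anemia, read 267, 218 and 168 TPM under IgG1, 191, 176 and 248 TPM under anti-PD-1, 239, 191 and 148 TPM under DOX/IgG1 and 207, 195 and 125 TPM under DOX/anti-PD-1. Both genes overlapped between all groups. Their log2 fold changes with doxorubicin over both antibodies were -0.24 (SE 0.170) and -0.20 (SE 0.186), negative under both scalings too.

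Paralogs of ribosomal proteins were expressed below their partners. Rpl22, an RNA-binding protein of the large subunit needed for T cell development, averaged 746 TPM and its paralog Rpl22l1 116 TPM. The ubiquitous Rpl7 averaged 1000.3 TPM against 64.4 TPM for Rpl7l1, and Rps27 235 TPM against 97.9 TPM for Rps27l, a known p53 target. Rpl36al, at 176 TPM, was above Rpl36a, at 74.3 TPM, and so was the exception. Rpl3l, the paralog of Rpl3 known from striated muscle, was at 0 in 7 tumors and highest in DOX/anti-PD-1 replicate 1 (6.83 TPM). That tumor also had the highest summed skeletal muscle markers, 661 TPM against 13.0 to 412 TPM in the other tumors, and their part in the Rpl3l level was not tested. Rpl3 itself averaged 436 TPM. Rpl39, a small protein of the exit tunnel, averaged 124 TPM, and Rpl39l was above 0 in anti-PD-1 replicate 1 (3.29 TPM) and DOX/anti-PD-1 replicate 2 (3.23 TPM) alone. Rps4l was not listed.

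The comparison of DOX/IgG1 with IgG1 tumors asked what doxorubicin did without checkpoint blockade. Rps6 and Rps4x of the small subunit were higher in the doxorubicin tumors. The members as a list lay slightly below other genes, an order that 1 IgG1 tumor decided. Rps29 and Rpl36a, at modest levels, were lower in every doxorubicin tumor than in any control. None of these differences passed the test.

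Rps29, a zinc-binding protein of the small-subunit head (ENSMUSG00000034892, chr12:69157722-69159186), read 103, 79.7 and 59.8 TPM in the IgG1 tumors and 19.9, 45.9 and 39.8 TPM in the DOX/IgG1 tumors. All 3 doxorubicin tumors lay below all 3 controls. The means were 80.9 ± 21.7 and 35.2 ± 13.6 TPM (SD, n = 3), a log2 fold change of -1.23 (SE 0.357) with an adjusted p of 0.494 (limma, Benjamini-Hochberg over 13874 genes). Rpl36a, a zinc-binding protein near the exit site of the large subunit (ENSMUSG00000079435, chrX:134585654-134588062), read 111, 88.5 and 80.1 TPM under IgG1 and 56.4, 29.1 and 58.2 TPM under DOX/IgG1. The groups were again apart. Its log2 fold change was -0.997 (SE 0.311), with an adjusted p of 0.514 in limma and an exact permutation p of 0.1, the smallest that 3 against 3 tumors can give (two-sided). Rpl23a and Rpl35, both at the exit tunnel, had log2 fold changes of -0.86 and -0.71, each with all 3 doxorubicin tumors below the controls under TPM and under both scalings tried. Rps29, Rpl23a and Rpl35 were chosen after their values were seen.

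Genes with tumors at or near 0 had the widest differences. On the lower side these were Rpl6l (-1.86, SE 1.01), the Rps27 copy Rps27rt (-1.85, SE 1.16) and Rpl24 (-1.70, SE 0.785). On the higher side stood the copies Rpl23a-ps3 (4.04, SE 1.27), Rpl9-ps6 (1.95, SE 1.41) and Rps2-ps6 (1.54, SE 0.801). Rpl23a-ps3 read 0, 35.1 and 0 TPM in the IgG1 tumors and 121, 45.5 and 27.3 TPM in the DOX/IgG1 tumors, opposite to the lower level of Rpl23a itself. Ranges overlapped for all 6 of these genes.

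Rps6, the small-subunit protein phosphorylated by S6 kinase downstream of mTOR (ENSMUSG00000028495, chr4:86854660-86857412), read 660.1, 511 and 479 TPM in the IgG1 tumors and 955, 858 and 725 TPM in the DOX/IgG1 tumors. Each doxorubicin tumor was above each control, with means of 550.1 ± 96.6 and 846 ± 115 TPM (SD, n = 3) and a log2 fold change of 0.63 (SE 0.245, limma adjusted p 0.597). Scaling by the median of ratios or to an equal listed sum kept it positive, at 0.51 and 0.57, and made the groups overlap. Rps4x, an X-linked small-subunit protein that threads the message entry side (ENSMUSG00000031320, chrX:102184941-102189394), read 518, 546 and 537 TPM under IgG1 and 704, 812 and 815 TPM under DOX/IgG1. These groups were apart by over 150 TPM, and they stayed apart under both scalings. The log2 fold change was 0.54 (SE 0.217), with a limma adjusted p of 0.613 and an exact permutation p of 0.1, the smallest possible.

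Of 90 members tested, limma called none (adjusted p under 0.1 with a log2 fold change beyond 1 either way), against 5 of all 13874 genes (0.036%). That count of 5 became 0 when any 1 IgG1 tumor was left out and 113 without DOX/IgG1 replicate 1. At an unadjusted p below 0.05, 3 members were higher (5.03% of all genes) and 7 lower (2.7% of all genes). The groups were apart for 3 members on the higher side, which 9.31% of all genes met, and for 6 on the lower side, which 4.64% met. The count of 10 at an unadjusted p below 0.05 became 5 without IgG1 replicate 2, 6 without DOX/IgG1 replicate 2 and 19 without DOX/IgG1 replicate 1. The share of all genes moved as well, from 7.73% in the main fit to 5.29%, 6.17% and 13.1% in that order. With no filter on low values the count of members was 2 (5.89% of all genes), and with no mean-variance trend 4 (7.76%). The median log2 fold change of members was -0.07 against 0.12 for all genes, and it turned to 0.09 without IgG1 replicate 1 and 0.03 without DOX/IgG1 replicate 3. Scaling by the median of ratios shifted the median of all genes by -0.11 here, by -0.12 in DOX/anti-PD-1 tumors against their controls and by -0.11 over both antibodies, so values are best read relative to all genes. Relative to that median the members stood at -0.20, and 63 of 90 (70%) lay below it. This order turned without IgG1 replicate 1, where the member median of 0.09 lay above the 0.02 of all genes. With no filter on low values, where the median of all genes was 0, the members stood at -0.06 with 54% below. The large-subunit median was -0.07 and the small-subunit median -0.08, so neither subunit led. The most abundant members followed their scaling, since the log2 fold changes of Rpl13a (0.04), Rpl26 (0.10), Rplp1 (0.11), Rpsa (0.05) and Rpl3 (0.02) all turned negative under the median of ratios (-0.08, -0.02, -0.01, -0.07 and -0.09). Without IgG1 replicate 3 the values of Rpl13a (-0.18), Rpl26 (-0.17), Rplp1 (-0.01) and Rpl3 (-0.12) were negative as well. Rpsa (-0.06) and Rpl3 (-0.01) were negative without IgG1 replicate 1, and Rpl26 (-0.08) and Rpl3 (-0.12) without DOX/IgG1 replicate 1, where Rpl13a reached 0.00.

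Setting DOX/anti-PD-1 tumors against anti-PD-1 tumors asked what doxorubicin did under checkpoint blockade. Rps16, Rps9 and Rplp2 were higher in the doxorubicin tumors, and Rpl5 was lower. The 3 higher genes differ in place, from the decoding head of the small subunit to the stalk of the large one. In this comparison no gene passed the test.

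Rps16, a protein of the small-subunit head whose tail reaches the decoding site (ENSMUSG00000037563, chr7:28350652-28353155), read 128, 216 and 276 TPM in the anti-PD-1 tumors and 377, 373 and 344 TPM in the DOX/anti-PD-1 tumors. All 3 DOX/anti-PD-1 tumors exceeded every tumor of the other 3 groups. Its means were 207 ± 74.3 and 365 ± 18.2 TPM (SD, n = 3), with a log2 fold change of 0.89 (SE 0.291), a limma adjusted p of 0.504 and an exact permutation p of 0.1, the smallest possible for 3 against 3. Rps9, which lies in the small-subunit body (ENSMUSG00000006333) and was chosen after its values were seen, read 389.9, 511 and 494 TPM and 645, 638 and 601 TPM in the same groups. It was apart as well, at a log2 fold change of 0.44 (SE 0.225).

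Rplp2, the second acidic stalk protein (ENSMUSG00000025508, chr7:141447370-141451585), read 928, 884 and 923 TPM in the anti-PD-1 tumors and 1360.5, 1311 and 1723 TPM in the DOX/anti-PD-1 tumors. Again the groups were apart, with means of 912 ± 24.3 and 1465 ± 225 TPM (SD, n = 3) and a log2 fold change of 0.67 (SE 0.248, limma adjusted p 0.521, exact permutation p 0.1). Its stalk partners did not share the size of this difference, since the log2 fold change was 0.15 for Rplp1 and 0.07 for Rplp0, and that of Rplp0 turned to -0.05 under the median of ratios. Rplp1 turned to -0.15 without anti-PD-1 replicate 1 and to -0.01 without DOX/anti-PD-1 replicate 2, and Rplp0 to -0.11 without anti-PD-1 replicate 1, -0.06 without DOX/anti-PD-1 replicate 1 and -0.03 without DOX/anti-PD-1 replicate 2. Rpl5, which binds 5S rRNA and inhibits the p53 ligase Mdm2 when free (ENSMUSG00000058558, chr5:107900502-107909005), read 322, 291 and 196 TPM under anti-PD-1 and 177, 167 and 191 TPM under DOX/anti-PD-1. All 3 doxorubicin tumors were lower, by a narrow margin that closed when listed sums were made equal, and the log2 fold change was -0.57 (SE 0.244, limma adjusted p 0.562). Rpl11, its partner in the 5S particle, read 144, 51.5 and 112 TPM and 188, 86.3 and 119.9 TPM in these groups. Here the groups overlapped, and the log2 fold change was 0.40 (SE 0.409), opposite in sign to that of Rpl5 under TPM and both scalings but -0.03 without anti-PD-1 replicate 2.

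Rpl10-ps3 (2.24, SE 1.92) and Rps2-ps6 (0.76, SE 1.21) shared the higher end with Rps16, and Rps2-ps6 turned to -0.25 without anti-PD-1 replicate 3 and -0.04 without DOX/anti-PD-1 replicate 2. At the lower end stood Rps12-ps3 (-2.59, SE 1.02), Rps27rt (-2.22, SE 1.64) and the copy Rpl7a-ps3 (-1.64, SE 1.04). All 5 had overlapping groups with a tumor at 0.

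Of 92 members tested, limma called none, and none of all 13736 genes (0%). At an unadjusted p below 0.05, 4 members were higher (6.3% of all genes) and 2 lower (2.33%). On the higher side the groups were apart for 6 members (11.1% of all genes), and on the lower side for 1, Rpl5 (3.84%). Rpl38, known for its part in translating Hox messages, and Rpl13 completed the 6 with log2 fold changes of 0.51 and 0.39, and both were chosen after their values were seen. The count of 6 at an unadjusted p below 0.05 was 3 without anti-PD-1 replicate 2, where the share of all genes was 5.89% in place of 8.63%. The median log2 fold change was -0.07 against 0.11 for all genes, and it became 0.05 without anti-PD-1 replicate 3 and 0.17 without DOX/anti-PD-1 replicate 3. Relative to all genes the members stood at -0.18, with 58 of 92 (63.0%) below the median of all genes. That order was lost without DOX/anti-PD-1 replicate 3, where the member median of 0.17 lay above the 0.13 of all genes, and with no filter on low values the members stood at -0.02 with 54% below. The large-subunit median was -0.07 and the small-subunit median -0.11.

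Fibroblast, adipocyte and myoepithelial markers were also higher in this comparison. All 6 fibroblast markers were higher, with a list median of 0.69, and their sum was 918, 839.8 and 676 TPM in the anti-PD-1 tumors and 1048, 1395 and 1568 TPM in the DOX/anti-PD-1 tumors, with Col1a1 the most abundant. The 5 adipocyte markers, led by Adipoq, had a median of 1.47 and sums of 45.1, 38.1 and 69.7 TPM and 476, 101 and 107 TPM. The 6 myoepithelial markers, led by Acta2, were all higher with a median of 0.45, and summed to 157, 259 and 234 TPM and 304, 379.5 and 462 TPM. For these 3 lists the sums did not overlap between the groups. All 6 macrophage markers were higher as well, with a median of 0.29, none at an unadjusted p below 0.05 in limma and overlapping sums. No gene of these lists was at 0 in all tumors, and none passed the test. Their part in the ribosomal values was not tested.

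The comparison of anti-PD-1 with IgG1 tumors asked what checkpoint blockade did on its own. The members differed little, with Rpl31 lower and Rps6 higher in the anti-PD-1 tumors. The largest log2 fold changes belonged to pseudogene-named copies with tumors at 0. Again no gene passed the test. All 6 fibroblast markers were lower in the anti-PD-1 tumors. Their sums did not overlap, at 1184, 1139 and 1791 TPM under IgG1 and 918, 839.8 and 676 TPM under anti-PD-1. All 7 epithelial and all 5 adipocyte markers were lower too, with overlapping sums. The part of these markers in the ribosomal values was not tested.

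Rpl31 (ENSMUSG00000073702, chr1:39367842-39371911) read 62.6, 78.0 and 78.2 TPM in the IgG1 tumors and 37.3, 47.2 and 43.6 TPM in the anti-PD-1 tumors. All anti-PD-1 tumors lay below all IgG1 tumors, under both scalings too. The means were 73.0 ± 8.95 and 42.7 ± 5.01 TPM (SD, n = 3), with a log2 fold change of -0.76 (SE 0.229), a limma adjusted p of 0.996 and an exact permutation p of 0.1, the smallest possible. Rps6 read 707, 786 and 674 TPM in the anti-PD-1 tumors, above all 3 IgG1 tumors, at a log2 fold change of 0.40 (SE 0.235). Its groups overlapped once either scaling was applied, with the sign kept.

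Rpl10-ps3, a copy of the late-joining large-subunit gene Rpl10 (ENSMUSG00000058443), read 189, 34.0 and 93.1 TPM in the IgG1 tumors and 0, 58.0 and 0 TPM in the anti-PD-1 tumors. The tumors at 0 were anti-PD-1 replicates 1 and 3, and replicate 2 lay within the IgG1 range. Its log2 fold change was -4.46 (SE 1.34, limma adjusted p 0.996), and leaving out anti-PD-1 replicate 2 gave -6.42 with a limma adjusted p of 0.0234. That setting called 1 of all 13419 genes and left only anti-PD-1 tumors at 0 TPM for Rpl10-ps3. Centring each tumor on the standard list gave -4.44 and also passed, and no other member passed in any alternative tried. Rpl10 itself, at 607, 657 and 588 TPM and 354, 717 and 909 TPM in the same groups, did not follow, with a log2 fold change of -0.01 (SE 0.335) that turned to 0.03 under the median of ratios, 0.04 without IgG1 replicate 2 and 0.39 without anti-PD-1 replicate 1. Rps12-ps3, a copy of Rps12, read 0, 0 and 10.6 TPM in the IgG1 tumors and 16.5, 23.9 and 8.10 TPM in the anti-PD-1 tumors, at a log2 fold change of 2.81 (SE 0.859). The processed copy Rpl6l read 20.9, 38.6 and 15.3 TPM and 8.14, 16.9 and 10.4 TPM, with overlap, at -0.97 (SE 0.394). Further copies were Rpl23a-ps3 (2.15, SE 1.25) and Rpl9-ps6 (1.34, SE 1.18) at the higher end and Rps27rt (-1.40, SE 1.22) at the lower end, the last at 0.48 without anti-PD-1 replicate 2.

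No member of 91 was called by limma, and none of 13692 genes was (0%). Members at an unadjusted p below 0.05 were 1 on the higher side (1.75% of all genes) and 3 on the lower side (2.85%). The groups were apart for Rps6 alone on the higher side (3.64% of all genes) and for Rpl31 alone on the lower (6.24%). The count of 4 at an unadjusted p below 0.05 became 12 without IgG1 replicate 1 and 7 without anti-PD-1 replicate 1, and 1 with no filter on low values, with the standard list alone or with 1 fit over 12 tumors. The share of all genes was 4.60% in the main fit and 6.73% and 5.28% without those tumors. It was 3.95% with no filter and 3.06% with 1 fit over 12 tumors. The median of members was -0.01 against -0.03 for all genes, with 43 of 91 (47.3%) below the median of all genes. That median has no stable sign, since it was 0.02 under the median of ratios, 0.00 with equal listed sums, 0.15 without IgG1 replicate 1, 0.04 without IgG1 replicate 2 and 0.11 without anti-PD-1 replicate 1 (unrounded 0.115). The large-subunit median was -0.04 and the small-subunit median 0.09.

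Setting DOX/anti-PD-1 tumors against the DOX/IgG1 group asked what checkpoint blockade added to doxorubicin. Rps16, Rps9 and Rplp2 were higher in the combined group, and no member was lower at an unadjusted p below 0.05. Because the DOX/anti-PD-1 tumors also enter the comparison with anti-PD-1, the values of these genes in both comparisons rest on the same 3 tumors. None passed the test.

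Rps16 read 231, 264 and 181 TPM in the DOX/IgG1 tumors against 377, 373 and 344 TPM in the DOX/anti-PD-1 tumors. Each combined tumor was higher, at a log2 fold change of 0.71 (SE 0.225), with a limma adjusted p of 0.988 and an exact permutation p of 0.1, the smallest possible for 3 against 3. Rps9 read 492, 419 and 417 TPM under DOX/IgG1, again below each combined tumor, at 0.51 (SE 0.214). Both genes belong to the small subunit, and their groups were apart under both scalings as well.

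In the large subunit, Rplp2 read 1233, 821 and 867 TPM under DOX/IgG1, and its log2 fold change was 0.60 (SE 0.277), with groups apart in TPM and overlapping under the median of ratios. Rpl37a, a zinc-binding protein (0.67), Rpl35 (0.64) and Rpl38 (0.51) were apart under both scalings. Rpl13 had a log2 fold change of 0.82 (SE 0.338) with overlap, from 205, 83.6 and 128 TPM in the DOX/IgG1 tumors to 291, 212 and 198 TPM in the combined tumors. Rpl37a, like Rpl35, Rpl38 and Rpl13, was chosen after its values were seen. Rpsa read 1604, 1724 and 1599 TPM under DOX/IgG1 and 1722, 2579 and 1892 TPM in the combined group, where 2 of 3 tumors exceeded all DOX/IgG1 tumors in TPM and all 3 did so under both scalings. By size alone the widest values were those of Rps12 (1.93, SE 1.91), Rpl37 (1.25, SE 0.646) and Rpl3l (1.13, SE 0.810) above 0, and of Rpl10-ps3 (-1.98), Rps27rt (-1.78, SE 1.60) and Rpl23a-ps3 (-1.53, SE 1.54) below 0, all with overlap. Rpl10-ps3 turned to 0.12 and Rpl23a-ps3 to 0.58 without DOX/anti-PD-1 replicate 3.

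Of 91 members, limma called none, against none of 13946 genes (0%). At an unadjusted p below 0.05, 7 members were higher (1.81% of all genes) and 0 lower (2.89%). Groups were apart for 7 on the higher side (4.27% of all genes) and for 0 on the lower (5.95%). The first count became 4 without DOX/IgG1 replicate 2, 3 without DOX/IgG1 replicate 3, 4 without DOX/anti-PD-1 replicate 2 and 2 with no mean-variance trend. The share of all genes was 4.70% in the main fit and 4.27%, 3.71%, 4.70% and 4.83% in these settings. The median of members was 0.06 against -0.04 for all genes, with 32 of 91 (35.2%) below the median of all genes (39% and 0.03 against 0 with no filter on low values), and it turned to -0.03 without DOX/IgG1 replicate 3, where all genes had -0.02 and the members no longer lay above them, and to -0.02 without DOX/anti-PD-1 replicate 2. The small-subunit median was 0.11 and the large-subunit median 0.03.

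**Figure D2:**
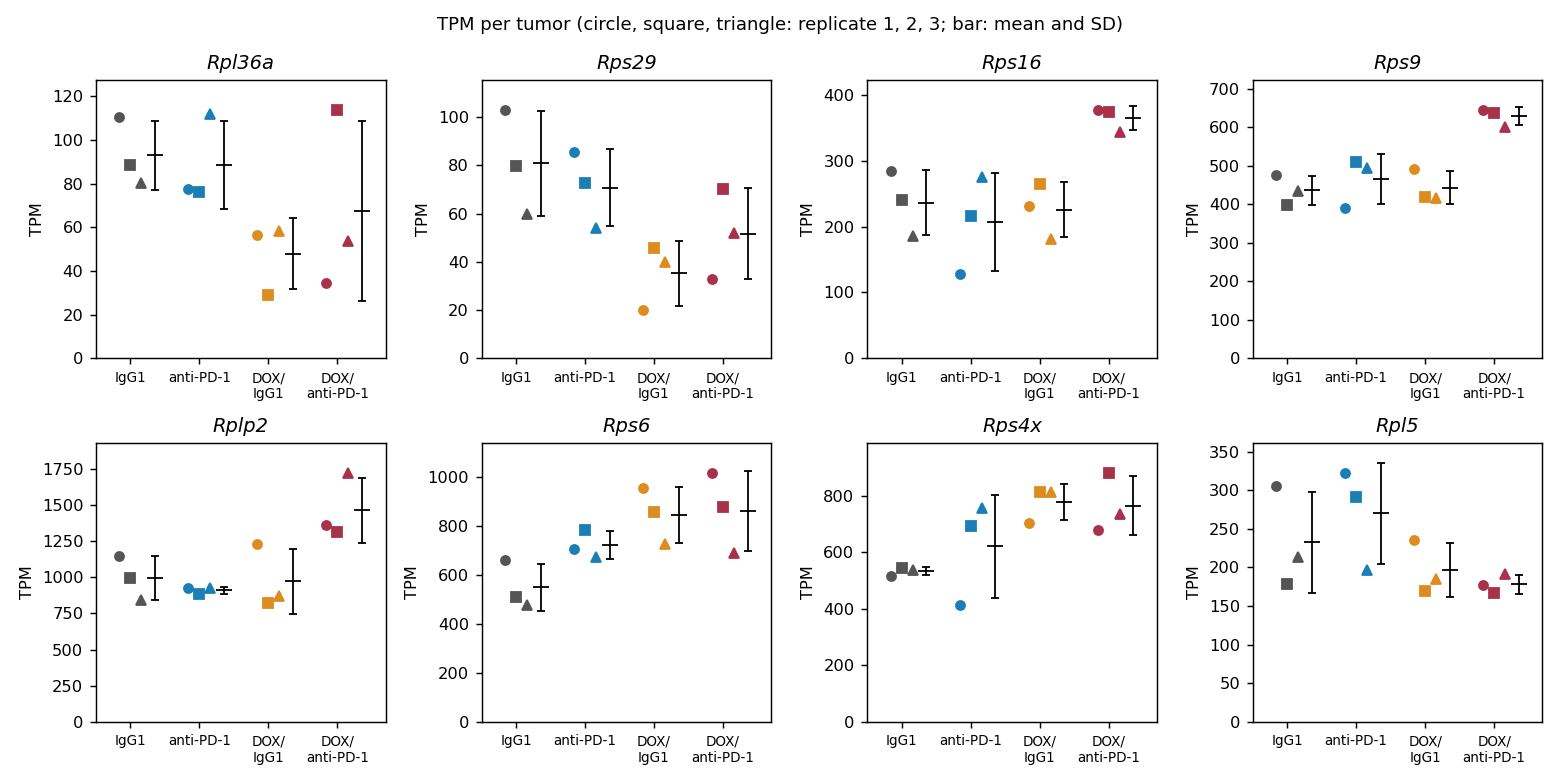
TPM in each of 12 tumors for Rpl36a, Rps29, Rps16, Rps9, Rplp2, Rps6, Rps4x and Rpl5 (symbols mark replicates 1 to 3 of each group, bars the mean and SD of 3 tumors, axes start at 0). In Rps16, Rps9 and Rplp2 the 3 DOX/anti-PD-1 tumors were the highest of all 12 in TPM, and in Rps29 the 3 DOX/IgG1 tumors lay below the IgG1 tumors.

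Taking doxorubicin over both antibodies, 6 tumors against 6, asked for differences shared by both antibody arms. Rps29, Rps28, Rpl36a, Rpl23a, Rpl21 and Rpl17 were lower with doxorubicin, and Rps6 and Rps4x were higher. Rps29 reached the smallest adjusted p of any member in any comparison, 0.240 (limma), at a log2 fold change of -0.86 (SE 0.261). It read 32.8, 70.4 and 52.0 TPM in the DOX/anti-PD-1 tumors and 85.8, 72.9 and 53.9 TPM in the anti-PD-1 tumors, which overlap, unlike its other arm.

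Rps28, a protein of the small-subunit head at the message exit, read 163, 149 and 78.9 TPM in the IgG1 tumors and 182, 159 and 139.8 TPM in the anti-PD-1 tumors. With doxorubicin it read 125, 46.6 and 56.8 TPM under IgG1 and 155, 91.9 and 48.0 TPM under anti-PD-1. In each antibody arm the groups overlapped, yet 3 of the 6 doxorubicin tumors lay below all 6 others. The log2 fold change was -0.84 (SE 0.294, limma adjusted p 0.290). Rpl36a had a log2 fold change of -0.77 (SE 0.269), with a limma adjusted p of 0.290 and an exact permutation p of 0.0325 (two-sided). Its highest tumor of all 12 was nevertheless a doxorubicin tumor, DOX/anti-PD-1 replicate 2. Rpl23a (-0.75), Rpl21 (-0.61) and Rpl17 (-0.49) followed in the large subunit and, like Rps29 and Rps28, were chosen after their values were seen.

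Rps4x had a log2 fold change of 0.44 (SE 0.174), with a limma adjusted p of 0.341 and an exact permutation p of 0.0173. It read 414, 694 and 755 TPM in the anti-PD-1 tumors and 679, 881 and 736 TPM in the DOX/anti-PD-1 tumors, so the overlap came from anti-PD-1 replicates 2 and 3. Rps6 had a log2 fold change of 0.43 (SE 0.171), with a limma adjusted p of 0.341 and an exact permutation p of 0.0152. In TPM all 6 doxorubicin tumors exceeded the 3 IgG1 tumors, and they overlapped the anti-PD-1 tumors. Rpl5 had a log2 fold change of -0.39 (SE 0.181) and Rpl11 one of 0.46 (SE 0.370). All 4 kept their signs under both scalings. Copies and uneven genes again had the widest values, with Rpl23a-ps3 at 2.20 (SE 1.20), Rps2-ps6 at 1.15 (SE 0.795) and Rpl10-ps3 at 0.99 (SE 1.17), against Rps27rt at -2.03 (SE 1.11), Rpl6l at -1.56 (SE 0.723) and Rpl24 at -1.34 (SE 0.914).

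Of 93 members, limma called none, against 3 of 14735 genes (0.0204%). Leaving out 1 tumor moved that count of 3 between 0, as without IgG1 replicate 2, and 211, without DOX/IgG1 replicate 1. At an unadjusted p below 0.05, 2 members were higher (8.82% of all genes) and 9 lower (3.16%). The median of members was -0.04 against 0.12 for all genes, at -0.16 relative to them, with 61 of 93 (65.6%) below the median of all genes. With no filter on low values they stood at -0.02, with 53% below. Without IgG1 replicate 1, anti-PD-1 replicate 3, DOX/IgG1 replicate 3 or DOX/anti-PD-1 replicate 3 the median turned positive, at 0.04, 0.04, 0.01 and 0.02. The large-subunit median was -0.02 and the small-subunit median -0.07. Mitochondrial ribosomal protein genes had a median of -0.03 and other short transcripts one of -0.04, so lying below all genes was shared by both, and the part of transcript length was not tested.

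Anti-PD-1 over both chemotherapy arms asked for differences shared by tumors with and without doxorubicin. The members differed by little. Rpl13 was higher and Rpl10-ps3 lower at an unadjusted p below 0.05, and both failed the correction. Rpl13 read 209.6, 118 and 113 TPM in the IgG1 tumors and 179, 178 and 171 TPM in the anti-PD-1 tumors, and with doxorubicin the 3 combined tumors included the highest of all 12. Its log2 fold change was 0.57 (SE 0.227, limma adjusted p 0.999), positive under both scalings. Rpl10-ps3 had a log2 fold change of -3.22 (SE 1.17), a limma adjusted p of 0.953 and an exact permutation p of 0.0779. Next to it below 0 were Rps27rt (-1.59, SE 1.11) and Rpl31 (-0.67, SE 0.632), which was 0.02 without DOX/anti-PD-1 replicate 1. Rps12 (1.52, SE 1.28), Rps12-ps3 (1.41, SE 0.964) and the copy Rpl7a-ps5 (1.01, SE 0.822) had the highest values, each with overlap.

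Limma called 0 of 93 members and 0 of 14735 genes (0%). At an unadjusted p below 0.05, 1 member was higher (1.78% of all genes) and 1 lower (2.91%). The count of 2 became 6 without IgG1 replicate 1, 7 without anti-PD-1 replicate 1, 5 without DOX/IgG1 replicate 1, and 1 without IgG1 replicate 3, without DOX/anti-PD-1 replicate 1 or with the standard list alone. In the main fit the share of all genes was 4.69%. Without those tumors it was 5.94%, 4.98%, 6.25%, 4.19% and 4.03%, in the order named. The median of members was 0.06 against -0.03 for all genes, with 30 of 93 (32.3%) below the median of all genes. Subunit medians were 0.05 for the large and 0.09 for the small subunit.

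The interaction term asked whether doxorubicin differed in its effect between the antibody arms. Rps16 (0.95, SE 0.396) and Rpl37a (0.87, SE 0.397) were among the members at an unadjusted p below 0.05, both with limma adjusted p values of 0.993, and Rpl37 had 1.27 with a wide error (SE 0.969). Copies with tumors at 0 lay further out, namely Rpl10-ps3 (2.48, SE 2.34) above 0 and Rpl23a-ps3 (-3.68, SE 2.29), Rps12-ps3 (-2.80, SE 1.86) and Rpl9-ps6 (-2.55, SE 2.41) below 0.

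No member of 93 was called by limma in the interaction, against 1 of 14735 genes (0.00679%), the salivary-type gene Bpifa2. At an unadjusted p below 0.05, 3 members were higher (2.26% of all genes) and 0 lower (2.45%). That count of 3 became 1 without IgG1 replicate 1 or DOX/IgG1 replicate 3, 6 without IgG1 replicate 3 and 7 without DOX/anti-PD-1 replicate 3. The share of all genes was 4.71% in the main fit and 4.86%, 4.48%, 4.58% and 5.47% without these tumors, in the order named. The median of members was 0.04 against -0.01 for all genes. It turned negative without IgG1 replicate 1 (-0.11), anti-PD-1 replicate 1 (-0.02), DOX/IgG1 replicate 3 (-0.03), DOX/anti-PD-1 replicate 1 (-0.03) or DOX/anti-PD-1 replicate 2 (-0.05).

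Salivary-type secretory markers moved with 1 group. Their 4 listed genes, with Amy1 the most abundant and none at 0 in all tumors, summed to 52.1, 98.0 and 113 TPM in the DOX/IgG1 tumors, and to 6.41, 16.8 and 5.93 TPM in the IgG1 tumors. In the anti-PD-1 tumors they summed to 22.4, 5.40 and 22.5 TPM and in the DOX/anti-PD-1 tumors to 19.7, 16.0 and 23.3 TPM. All 3 DOX/IgG1 tumors thus exceeded the other 9. Of these genes, Bpifa2 (log2 fold change 4.73) and Smr3a (3.87) rose in DOX/IgG1 against IgG1, both in 3 of 3 tumors and with a limma adjusted p of 0.0334. When any 1 IgG1 tumor was left out, no gene was called in that comparison. The part of the salivary-type markers in the ribosomal values was not tested.

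Other genes of translation gave a frame for the members. Fau, which encodes a small-subunit protein fused to a ubiquitin-like sequence, and Rack1, a scaffold on the small subunit, fall outside the symbol rule. Fau read 145, 159 and 113 TPM in the IgG1 tumors and 179, 157 and 164 TPM in the anti-PD-1 tumors, against 149, 68.8 and 79.8 TPM in the DOX/IgG1 tumors and 49.6, 129 and 179.8 TPM in the DOX/anti-PD-1 tumors. With overlap, its log2 fold change was -0.61 with doxorubicin over both antibodies (SE 0.272, limma adjusted p 0.390). Rack1 had 0.09, which turned to -0.03 under the median of ratios. The elongation factor Eef2 (0.10) and the translation-linked Tpt1 (0.08) also turned negative under it (-0.03 and -0.05).

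Eef1a1, the elongation factor that brings aminoacyl-tRNA to the ribosome and another known carrier of the start tract, read 3966, 3882 and 3456 TPM in the IgG1 tumors and 3176, 3694 and 3949.6 TPM in the anti-PD-1 tumors. With doxorubicin it read 4012, 4121 and 4021 TPM under IgG1 and 5046, 4965 and 4324 TPM under anti-PD-1. Every doxorubicin tumor exceeded every other tumor, though the DOX/IgG1 tumors did so by a narrow margin. The log2 fold change was 0.26 (SE 0.198), with a limma adjusted p of 0.638 and an exact permutation p of 0.0022, the smallest that 6 against 6 can give. The gap between the groups of 6 closed under both scalings, and the DOX/IgG1 difference from IgG1 changed from 0.11 to -0.01 under the median of ratios. DOX/anti-PD-1 tumors stayed apart from anti-PD-1 tumors under both scalings. That difference was 0.41 in TPM, 0.28 under the median of ratios and 0.38 with equal listed sums.

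With doxorubicin over both antibodies, 9332 of all 14735 genes were higher and 5403 lower, and 8.82% were higher at an unadjusted p below 0.05. Against that background, the 22 other messages known for the tract had a median log2 fold change of 0.08, with 16 higher and 6 lower, from 0.27 for the nucleolar Npm1 to -0.61 for Fau. The 50 listed ribosome biogenesis genes had a median of 0.06 (28 higher, 22 lower), from 0.51 for Bysl to -0.79 for Nop10, and the 33 initiation genes one of 0.06 (21 higher, 12 lower), from 0.37 for Eif4e to -0.34 for Eif3c. Of 21 tested genes of mTOR and Myc control, 15 were higher and 6 lower, with a median of 0.10, from 0.75 for the S6 kinase Rps6kb2 to -0.40 for the mTOR inhibitor Deptor. Myc had 0.00 and Mtor 0.08, which became -0.11 and -0.04 under the median of ratios, the tract-binding Larp1 had -0.06 and the mTOR target Eif4ebp1 0.27, both with signs kept. In the 14 genes of the p53 response all were higher, with a median of 0.60 and 8 at an unadjusted p below 0.05, from 1.19 for Cdkn1a to 0.14 for Bax, with Mdm2 at 0.41. The member Rps27l, a known p53 target outside this list, went the other way at -0.54, with overlap and an exact permutation p of 0.169 (two-sided). Cdkn1a, the p53 target that stops the cell cycle, read 15.2, 12.4 and 8.99 TPM in the IgG1 tumors and 54.8, 36.4 and 29.6 TPM in the DOX/IgG1 tumors, which did not overlap. It read 14.0, 10.7 and 29.3 TPM and 23.9, 13.7 and 67.6 TPM in the anti-PD-1 and DOX/anti-PD-1 tumors, which did, and its log2 fold change over both antibodies was 1.19 (SE 0.362, limma adjusted p 0.240). No gene of these lists passed the test, against a median of 0.12 for all genes.

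**Figure D3:**
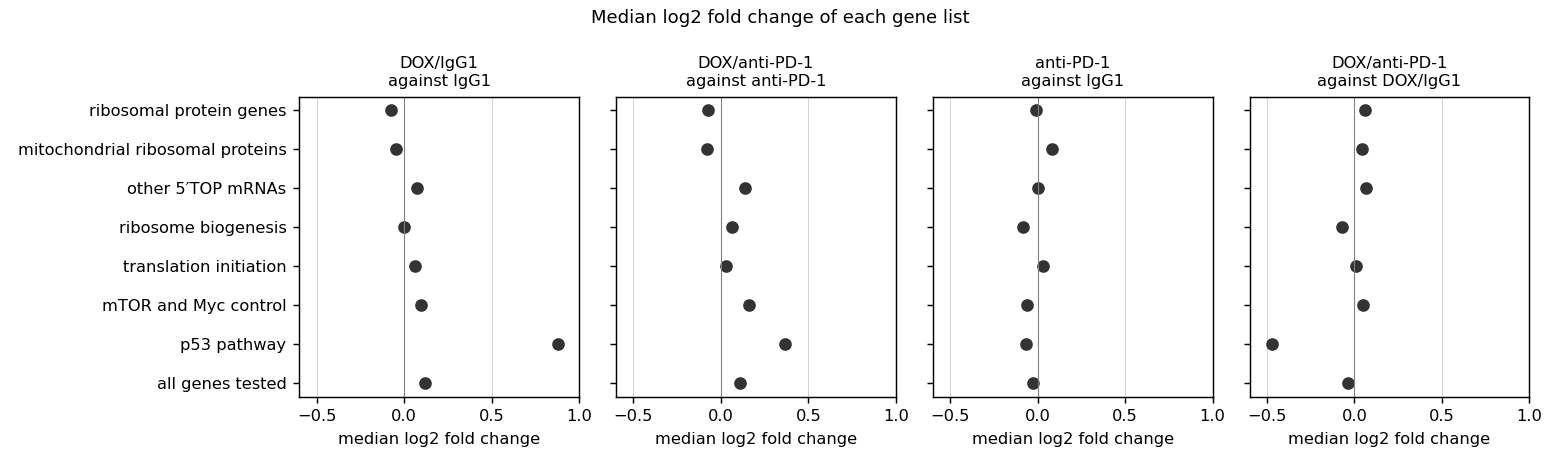
Median log2 fold change (horizontal, TPM as given) of the ribosomal protein genes, 6 other gene lists and all genes tested, in 4 comparisons of 3 against 3 tumors. The ribosomal protein genes lay at -0.07, -0.07, -0.01 and 0.06, of which -0.01 turned to 0.02 under the median of ratios, and the p53 genes lay at 0.88 and 0.37 with doxorubicin.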

How the data were processed

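The authors isolated total RNA from snap-frozen tumors, made libraries with a SMARTer stranded total RNA kit, sequenced single ends on a NextSeq, trimmed with skewer, aligned to mm10 with STAR and quantified with RSEM. Their values, deposited as log2 TPM with 1 added, were turned back to TPM. Versions of those tools and read depths are not given. Log2(TPM + 1) values of genes at 1 TPM or more in 3 or more tumors of a comparison were fitted with limma 3.58.1 in R 4.3.3 (trend on), with Benjamini-Hochberg adjustment over all genes tested. A call needed an adjusted p under 0.1 with a log2 fold change beyond 1 either way. Single genes were also tested by exact permutation in Python 3.11.15. Apart means that the ranges of 2 groups did not overlap. The fit was tested on simulated data.

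Members named were Rps27a, 8 paralog pairs, genes of known special role, the most and least abundant, the most and least variable, and the 3 highest and 3 lowest log2 fold changes of each comparison. Some members so named are not reported here. Members and lists were chosen with earlier results of these data known. Alternatives were a pseudocount of 0.1 TPM, no filter, a filter at 10 TPM, no trend, scaling by the median of ratios or to an equal listed sum, the standard list, 1 fit over 12 tumors, a replicate block, centring on the standard list, shares without abundant genes, and leaving out each tumor. Those of the interaction were added after seeing the data.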

Additional observations from a re-analysis of the deposited data

Results flagged for a closer look

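Groups of 3 tumors were too small for the search for single outlying tumors.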

How the results depend on the processing

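Member calls stayed at 0 in the 7 comparisons, apart from Rpl10-ps3 in anti-PD-1 against IgG1. It gave a count of 1 without anti-PD-1 replicate 2, where 1 of all 13419 genes was called. Fewer samples were compared there, and the anti-PD-1 tumors left were all at 0 TPM for this gene. Rpl10-ps3 also passed when centred on the standard list. Of 3085 alternative values for 43 single genes, 3083 stayed on the same side of the threshold, 2 passed it, these 2 of Rpl10-ps3 (-6.42 and -4.44), and 403 changed sign. The depth is unknown, and groups of 3 limit the tests.

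Counts at an unadjusted p below 0.05 moved as follows, and the cause was not tested. The share of all genes also moved, in DOX/IgG1 against IgG1 from 7.73% to 13.1% without DOX/IgG1 replicate 1. In DOX/IgG1 against IgG1 the count of 10 was 2 with no filter, 4 with no trend and 5 to 19 when leaving out tumors. In DOX/anti-PD-1 against anti-PD-1 the 6 became 3 to 9. There the share of all genes was 8.63% in the main fit, 5.89% without anti-PD-1 replicate 2 (count 3) and 7.78% without DOX/anti-PD-1 replicate 3 (count 9). In anti-PD-1 against IgG1 the 4 became 1 with no filter, with the standard list or with 1 fit over 12 tumors, and 3 to 12 when leaving out tumors, with calls of 0 to 1. For the combined group against DOX/IgG1 the 7 became 2 with no trend and 3 to 10. The share of all genes there was 4.70% in the main fit, 3.71% without DOX/IgG1 replicate 3 (count 3) and 7.52% without DOX/IgG1 replicate 1 (count 10). Doxorubicin over both antibodies gave 8 to 15. Its share of all genes was 12.0% in the main fit, 10.5% without IgG1 replicate 1 (count 8) and 12.2% without DOX/anti-PD-1 replicate 2 (count 15). Anti-PD-1 over both arms gave 1 with the standard list and 1 to 7, and the interaction 1 to 7, with their shares of all genes given above.

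Leaving out 1 tumor moved the member medians from -0.25 to 0.09, -0.18 to 0.17, -0.13 to 0.15, -0.03 to 0.23, -0.12 to 0.04, 0.00 to 0.13 and -0.11 to 0.19 in the same order. Shares ranged from 4.94 to 6.52%, 5.44 to 6.50%, 5.00 to 5.57% and 5.58 to 6.23% in IgG1 and anti-PD-1 tumors without and then with doxorubicin, and ratios of the subunits from 1.76 to 1.88, 1.75 to 1.82, 1.73 to 1.78 and 1.58 to 1.70. Without the 5 most abundant members the shares were 3.80, 3.82, 3.49 and 3.90% and the ratios 1.49, 1.42, 1.35 and 1.35, as fewer genes were summed. Without the 50 most abundant other genes the shares were 6.02% in DOX/IgG1 and 6.60% in DOX/anti-PD-1 tumors, over a smaller total.

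With the replicate block, anti-PD-1 over both arms gave 4 members at an unadjusted p below 0.05 in place of 2, and no member was called in any comparison. Replicate numbers were not treated as pairs. The 18 correlations between tumors of the same number had a median of 0.0134, with 4 above 0.1, as had 4 of the 36 others, while 8 of 12 tumors were closest to one of their own number, so a weak link by number is possible.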
